A study of Mus musculus with 12 samples.

Results

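Genes of glycolysis and of the citric acid cycle were followed in mouse astrocytes that had been made to form spheres, in the astrocytes they came from and in 2 kinds of brain cell suspension. The genes were chosen by name as 37 enzymes and kinases of both pathways, and the names matched 38 of the 55862 genes in the expression table, because 2 loci on chromosome 7 carry the name Aldoa. By role, 15 of the 38 loci belong to glycolysis, 2 make lactate dehydrogenase and 5 make or regulate pyruvate dehydrogenase (pyruvate entry in the figures). The other 16 are counted with the citric acid cycle, among them Idh1 and Mdh1, whose enzymes are cytosolic.

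Glycolysis splits glucose into pyruvate in the cytosol and yields a little ATP. Pyruvate is then either reduced to lactate by lactate dehydrogenase or carried into the mitochondrion, where the pyruvate dehydrogenase complex turns it into acetyl-CoA for the citric acid cycle, and pyruvate dehydrogenase kinases switch that complex off by phosphorylation. In the brain, astrocytes are known for strong glycolysis and lactate release, and neurons for a greater use of the citric acid cycle and of oxidative phosphorylation.

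RNA was sequenced from 4 groups of 3 samples, all from C57BL/6 mice by the labels, where the study's methods give C57BL/6J for both NPC groups, and with no transgene, reporter or drug named for any group. ASTs were primary astrocytes from the cerebral cortex of mice at postnatal day 1 to 2, grown in DMEM with fetal bovine serum and taken at day 0 of incubation. A-iSCs were the same kind of cells after 5 days of incubation as spheres on agarose. P56-NPCs were cells dissociated from the subependymal zone of adult mice at postnatal day 56. P0-NPCs were cells dissociated from the hippocampus at postnatal day 0. No sorting step is described in the methods for either, so these 2 groups are tissue suspensions named for neural progenitor cells (NPCs). The labels do not say that the 3 samples of a group came from separate animals or cultures, so each p-value measures only the spread between these samples. The question was which genes change when ASTs become A-iSCs, with the NPC groups as a reference.

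Levels are given in FPKM, fragment counts put relative to the length of the gene and the size of the library, and between 17077780 and 24452419 fragments were counted per sample. For a gene 1 kilobase long, 3 fragments amounted to 0.103 to 0.187 FPKM, a floor for counting error alone. AST replicate 2 and A-iSC replicate 3 each stood apart from the other samples of their group, with a mean distance of 0.34 and 0.47 on the log2 scale against 0.26 for both other ASTs and 0.34 to 0.37 for the other A-iSCs. All 8 astrocyte markers reached 1 FPKM in each group, and their sum was 145 to 167 FPKM in ASTs, 950 to 2044 in A-iSCs, 1753 to 1859 in P56-NPCs and 168 to 225 in P0-NPCs. The sum of 7 neural progenitor markers was lower in P56-NPCs (109 to 137 FPKM) than in ASTs (341 to 366), while the sum of 7 oligodendrocyte markers was 11159 to 12689 FPKM in P56-NPCs and at most 175 in any sample of the other groups, with Mog, Mag and Mobp under 0.1 FPKM in ASTs.

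Summed over the 38 loci, the RNA of both pathways was 3450 ± 111 FPKM (SD, n = 3) in ASTs, 2663 ± 125 in A-iSCs, 2695 ± 70.8 in P56-NPCs and 1343 ± 69.1 in P0-NPCs. The glycolytic loci alone came to 1891 to 1940 FPKM in ASTs, 1369 to 1525 in A-iSCs, 1185 to 1288 in P56-NPCs and 512 to 603 in P0-NPCs, 4 ranges that did not overlap. Aldoc, an aldolase gene that is no member and not in these sums, averaged 13.0 FPKM in ASTs, 406 in A-iSCs, 1167 in P56-NPCs and 90.1 in P0-NPCs. The order of the glycolytic sums therefore holds for the member loci only. The citric acid cycle loci followed another order, with 924 to 1057 FPKM in ASTs, 865 to 883 in P56-NPCs, 686 to 702 in A-iSCs and 538 to 576 in P0-NPCs. Gene by gene, ASTs had the highest mean of the 4 groups for 17 of the 38 loci, P56-NPCs for 13, A-iSCs for 6 and P0-NPCs for 2, where among 16568 genes with at least 1 FPKM in any group these shares were 30.7%, 26.3%, 16.5% and 26.6%. P0-NPCs had the lowest mean for 23 loci, and for 19 of them no P0-NPC sample reached the lowest sample of any other group, which held for 16.5% of the 16568 genes. In the plot of all loci by sample, this stands out as a mostly blue block for P0-NPCs, with Idh1 and the second Aldoa locus as its clear exceptions.

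**Figure D1:**
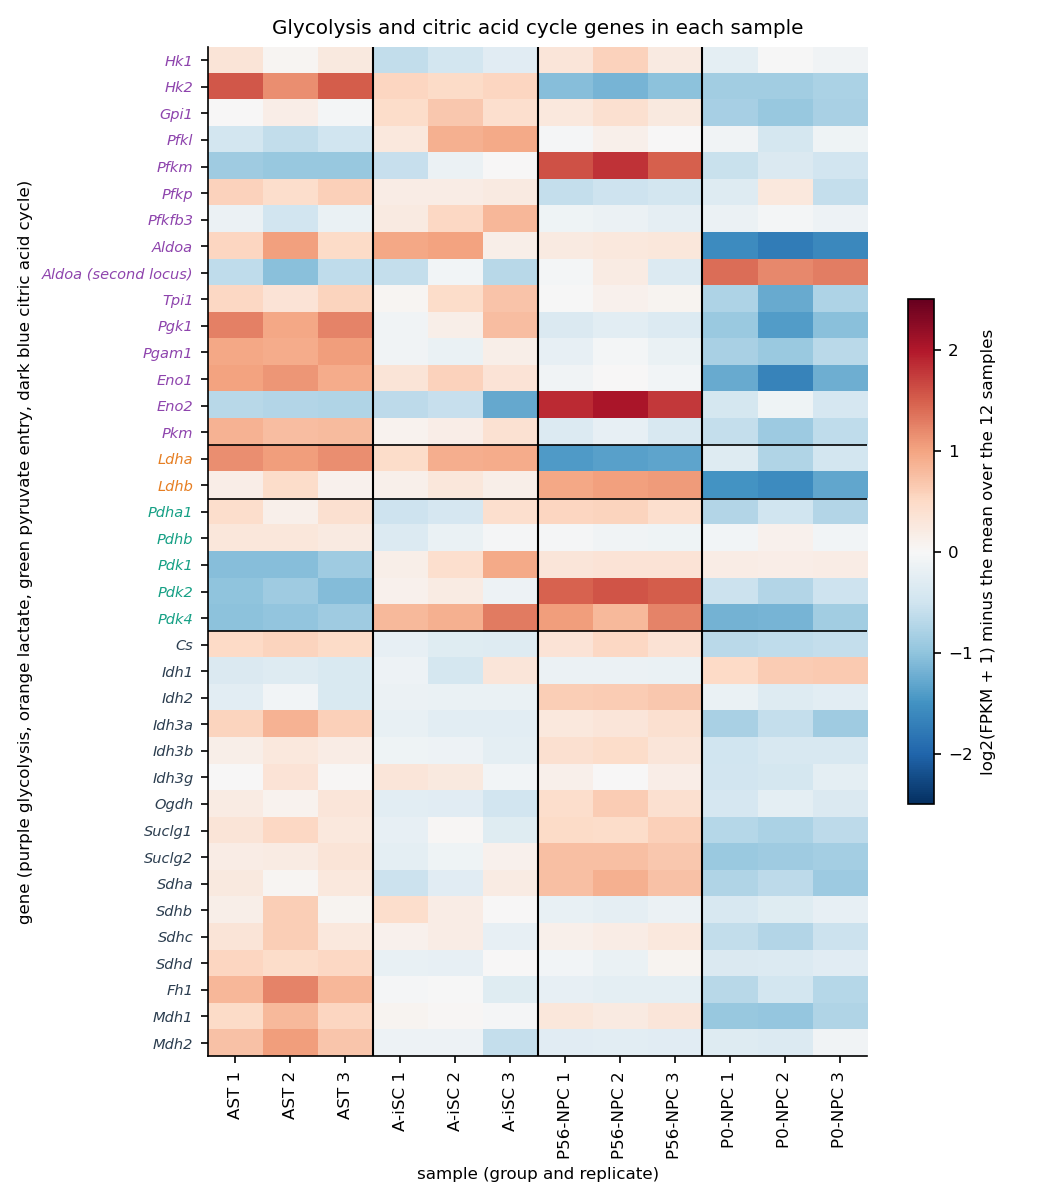
Each row is a gene and each column a sample, and the colour gives log2(FPKM + 1) minus the mean of that gene over the 12 samples, from blue (lower) to red (higher). Row names are coloured by role. All 3 P0-NPC columns lie below every other column for 19 of the 38 loci, Pfkm and Eno2 are darkest red in P56-NPCs, and Hk2 and Pgk1 are darkest red in ASTs.

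Between A-iSCs and ASTs, the pyruvate dehydrogenase kinase genes Pdk1, Pdk2 and Pdk4 rose while Pdk3, which is no member, fell, 9 of the 16 citric acid cycle genes fell and glycolysis split, with 4 loci higher and 7 lower. In all, 7 of the 38 loci were called higher in A-iSCs (18.4%) and 17 lower (44.7%) with limma at a Benjamini-Hochberg adjusted p under 0.05, and 14 were not called. In the same test 54.8% of all 14087 genes were called, 25.2% higher and 29.6% lower, so the share of lower loci was above that background and the share of higher loci below it. The median log2 fold change of the 38 loci was -0.36, beside -0.06 for all tested genes. Samples of the 2 groups did not overlap for 7 loci that were higher in A-iSCs and 20 that were lower, against 28.8% and 33.9% of all tested genes. All 38 loci passed the filter of a mean of 1 FPKM in at least 1 of the groups, the second Aldoa locus only through A-iSCs.

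Cell type markers moved in the same comparison. The sum of 7 microglia markers was 97.0 to 127 FPKM in ASTs and 1089 to 1499 in A-iSCs, and that of 5 pericyte and smooth muscle markers was 1702 to 2123 FPKM in ASTs and 29.8 to 62.4 in A-iSCs. The latter sum was nearly all Acta2, at 1690 to 2113 FPKM in ASTs and 25.5 to 58.6 in A-iSCs, while Rgs5 and Vtn averaged 0.311 and 0.0525 FPKM in ASTs and 0.699 and 0.872 in A-iSCs. Of the microglia markers, 5 of 7 reached 1 FPKM in ASTs and 7 of 7 in A-iSCs, with none under 0.1. Of the pericyte markers, 2 of 5 reached it in both groups, with Vtn under 0.1 FPKM in ASTs and Myh11 in A-iSCs. The sum of 5 fibroblast markers was 145 to 196 FPKM in ASTs and at most 10.8 in A-iSCs, with 2 and 3 of 5 at 1 FPKM or more and Lum under 0.1 in ASTs. Col1a1 made up most of that sum, averaging 158 FPKM in ASTs and 2.98 in A-iSCs, while Pdgfra averaged 0.373 and 5.50 and Lum 0.0374 and 0.128. The sum of 9 neuron markers was 88.9 to 125 FPKM in ASTs and 48.7 to 66.0 in A-iSCs, with 3 and 4 of 9 at 1 FPKM or more, Rbfox3 and Snap25 under 0.1 in ASTs, Nefl in A-iSCs and Slc17a7 in both. Stmn2, at 53.8 FPKM on average in ASTs and 7.16 in A-iSCs, accounted for most of that difference, while Tubb3 averaged 40.7 and 37.8, Map2 6.25 and 9.93, and Gad1 0.172 and 1.71. The part of these cell types in the changes of the metabolic genes was not tested. In bulk RNA, fewer cells of a type and less RNA per cell cannot be told apart. With both AST replicate 2 and A-iSC replicate 3 left out, 9 loci were called higher and 21 lower. The calls also depend on how samples are scaled. The deposited values already contain a scaling between samples, and under scaling by library size alone the median of all genes moved from -0.06 to 0.12, after which 7 loci were called higher and 9 lower, with no called locus changing direction. The calls lost were those of Pfkp, Pgk1, Eno1, Pkm, Pdhb, Idh3b, Ogdh and Suclg1. Over all genes the calls were 3550 higher and 4165 lower as reported, and 4432 and 2997 under library size scaling.

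**Figure D2:**
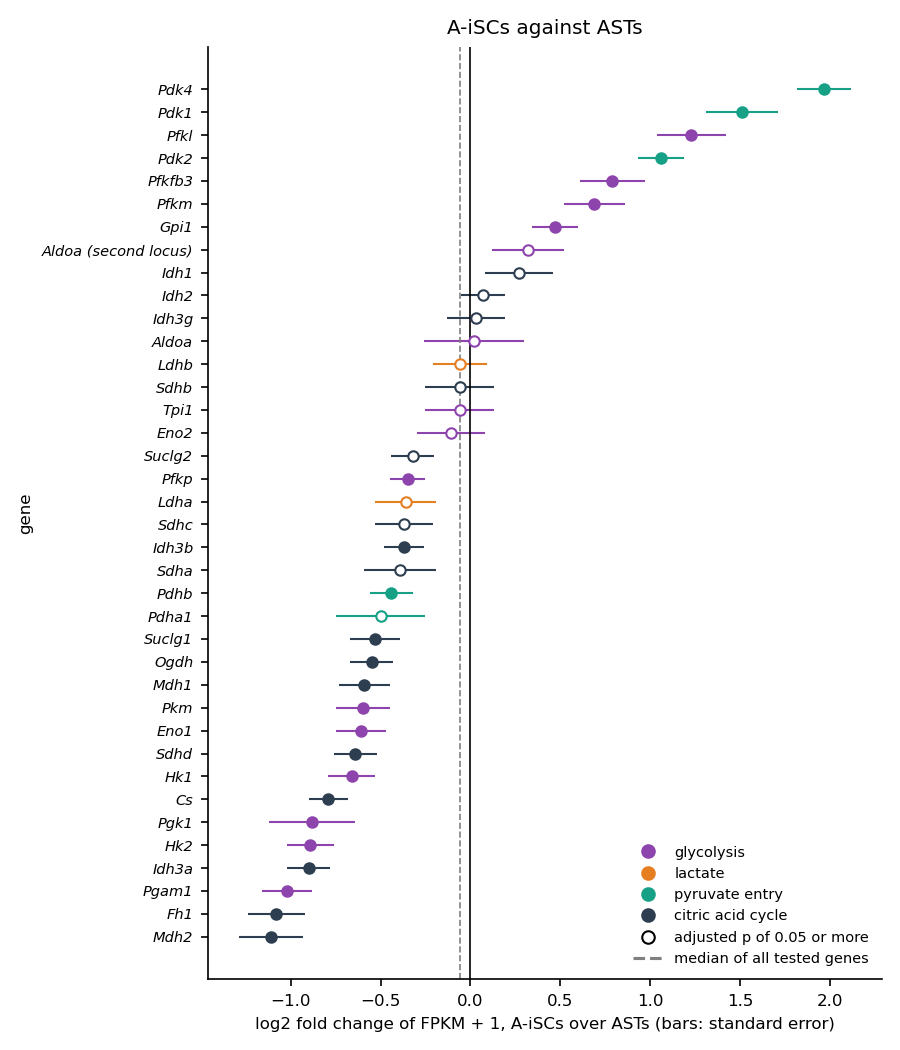
Each point is the log2 fold change of FPKM + 1 in A-iSCs over ASTs for a locus, with its standard error as a bar, coloured by role and filled where the adjusted p was under 0.05. The values run from -1.11 for Mdh2 to 1.97 for Pdk4, and the dashed line marks the median of all tested genes at -0.06.

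The first steps of glycolysis moved in opposite directions. Hk1 and Hk2 encode hexokinases, which trap glucose in the cell as its phosphate. Hk2 was at 19.3, 14.4 and 18.5 FPKM in the 3 ASTs and at 8.98, 8.54 and 9.04 in the 3 A-iSCs. Every A-iSC sample was below every AST sample, and Hk2 fell by 0.89 on the log2 scale (SE 0.13, adjusted p = 0.00118). Hk1 fell by 0.66 (SE 0.13, adjusted p = 0.00462), from 20.2 ± 1.99 FPKM (SD, n = 3) to 12.4 ± 1.58. The next enzyme, glucose-6-phosphate isomerase, is made from Gpi1, which rose from 67.5 ± 5.40 to 94.3 ± 9.19 FPKM, a log2 change of 0.47 (SE 0.13, adjusted p = 0.0187).

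Phosphofructokinase commits sugar to glycolysis and is made of liver, muscle and platelet type subunits, from Pfkl, Pfkm and Pfkp. Pfkl was at 8.95, 7.83 and 8.60 FPKM in ASTs and at 15.4, 24.1 and 25.3 in A-iSCs. The groups were well apart, although A-iSC replicate 1 was far below the other A-iSCs, and the log2 change was 1.23 (SE 0.19, adjusted p = 0.00135). Pfkm was at 24.9, 23.8 and 23.7 FPKM in ASTs and at 30.9, 42.1 and 47.2 in A-iSCs, again without overlap (log2 change 0.69, SE 0.17, adjusted p = 0.0104). Pfkp went the other way, from 17.4 ± 1.07 to 13.5 ± 0.260 FPKM (log2 change -0.35, SE 0.10, adjusted p = 0.0238). Pfkfb3, whose product makes the strongest known activator of phosphofructokinase, was at 7.10, 5.50 and 7.09 FPKM in ASTs and at 9.54, 11.9 and 15.1 in A-iSCs, so it also rose in all 3 samples (log2 change 0.79, SE 0.18, adjusted p = 0.00806).

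From the aldolase step to pyruvate, no glycolytic member rose. Pgk1, encoding phosphoglycerate kinase, fell by 0.88 on the log2 scale (SE 0.24, adjusted p = 0.0186). Its AST samples were at 433, 351 and 427 FPKM and its A-iSC samples at 169, 200 and 309, so A-iSC replicate 3 lay closest to the ASTs. Pgam1 (phosphoglycerate mutase) fell from 227 ± 10.1 to 112 ± 13.6 FPKM, the steepest fall among the 15 glycolytic members (log2 change -1.02, SE 0.14, adjusted p = 0.000803). Eno1 (enolase) and Pkm (pyruvate kinase) had log2 changes of -0.61 and -0.60 (SE 0.14 and 0.15, adjusted p = 0.00968 and 0.0111). Both were abundant, at 294 and 333 FPKM on average in ASTs and at 193 and 220 in A-iSCs. Aldoa, which encodes aldolase and was the most abundant glycolytic member in A-iSCs, was not called at a log2 change of 0.02 (SE 0.28, adjusted p = 0.960). Its samples were far apart within groups, at 309, 433 and 296 FPKM in ASTs and 415, 425 and 233 in A-iSCs. AST replicate 2 and A-iSC replicate 3 were the odd ones, and without both of them the log2 change was 0.47 (adjusted p = 0.00314). The second Aldoa locus (0.32), Tpi1 (-0.06), for triose phosphate isomerase, and Eno2 (-0.11), for the enolase typical of neurons, were not called either.

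Some of these calls rested on single libraries. Gpi1 did not pass without AST replicate 1, AST replicate 3 or A-iSC replicate 2, with log2 changes of 0.40 to 0.54 over the 6 fits that each left out 1 library. Pfkp (-0.39 to -0.32) and Pgk1 (-1.13 to -0.69) did not pass without AST replicate 1 or 3 or A-iSC replicate 1 or 2, and Pkm (-0.69 to -0.54) did not pass without AST replicate 1. Gpi1 also missed the threshold under upper-quartile scaling (adjusted p = 0.0619), Pfkp with all 4 groups in the model (0.0877) and Pgk1 with no filter (0.0524).

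At the branch between lactate and the mitochondrion, the lactate dehydrogenase genes were not called and the kinase genes Pdk1, Pdk2 and Pdk4 were the members that rose most, together with Pfkl. Ldha was at 240, 221 and 240 FPKM in ASTs and at 148, 201 and 203 in A-iSCs. The A-iSC samples were all lower, but A-iSC replicate 1 was well below the other 2, and the log2 change of -0.36 (SE 0.17) had an adjusted p of 0.112. With both AST replicate 2 and A-iSC replicate 3 left out it was -0.47 (adjusted p = 0.0387). Ldhb differed by -0.06 (SE 0.15, adjusted p = 0.767). At an unadjusted p under 0.05, and with limma-voom, 0 of these 2 genes were called as well.

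Pdk1, Pdk2 and Pdk4 encode kinases that inactivate pyruvate dehydrogenase, and Pdk1 and Pdk4 are known to respond to low oxygen and to fasting, respectively. Pdk4 was at 3.09, 3.22 and 3.50 FPKM in ASTs and at 13.7, 14.5 and 19.6 in A-iSCs. This 4.88-fold ratio of the means was the highest of the 38 loci (log2 change 1.97, SE 0.15, adjusted p = 4.36e-05). Pdk1 was low in ASTs, at 1.63, 1.63 and 1.99 FPKM, and was at 5.13, 6.35 and 9.70 in A-iSCs, with a log2 change of 1.51 (SE 0.20, adjusted p = 0.000707). Pdk2 was at 8.39, 9.20 and 7.85 FPKM in ASTs and at 19.4, 20.6 and 16.3 in A-iSCs, with a log2 change of 1.06 (SE 0.13, adjusted p = 0.000387). The lowest A-iSC sample was above the highest AST sample for all 3 genes, and all 3 passed in each of the 6 fits without 1 library. Pdk3, the other kinase of the family and no member, was the most abundant of the 4 in ASTs, at 12.9 to 17.0 FPKM, and fell to 5.44 to 7.33 in A-iSCs (log2 change -1.19, SE 0.15, adjusted p = 0.000524). All 4 kinases together came to 28.9 ± 1.66 FPKM in ASTs and 47.9 ± 4.58 in A-iSCs.

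The enzyme that these kinases act on did not rise. Pdhb, for the beta subunit of pyruvate dehydrogenase, fell from 32.1 ± 0.649 to 23.5 ± 2.73 FPKM (log2 change -0.44, SE 0.12, adjusted p = 0.0179), a call that was lost without AST replicate 1 or 3 or A-iSC replicate 1 or 2 (-0.52 to -0.36). Pdha1, for the alpha subunit, was at 47.2, 37.5 and 45.7 FPKM in ASTs and at 23.8, 25.3 and 46.4 in A-iSCs. Here A-iSC replicate 3 alone lay among the ASTs, and Pdha1 was not called (-0.50, SE 0.25, adjusted p = 0.138) until that library was left out, when its log2 change was -0.79.

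**Figure D3:**
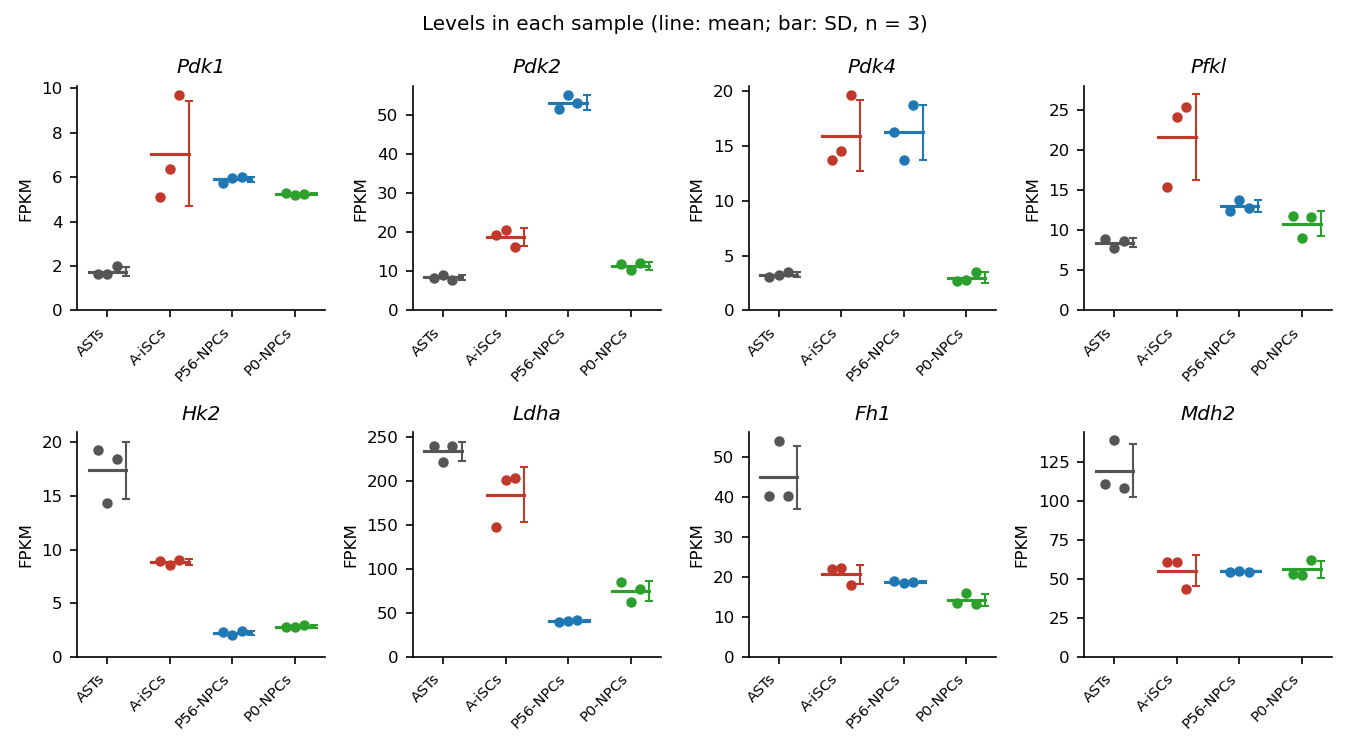
FPKM of 8 genes in each sample (points) of the 4 groups, with the mean (line) and the SD of 3 samples (bar). The 3 A-iSC points lie above the 3 AST points for Pdk1, Pdk2, Pdk4 and Pfkl, and below them for Hk2, Ldha, Fh1 and Mdh2.

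In the citric acid cycle, 9 of 16 genes fell in A-iSCs and limma called 0 higher, also at an unadjusted p under 0.05 and with limma-voom. Cs, for citrate synthase, the entry of the cycle, was at 66.8, 70.4 and 66.3 FPKM in ASTs and at 40.8, 38.2 and 37.8 in A-iSCs. The samples of each group were close together, and Cs had a log2 change of -0.79 (SE 0.11, adjusted p = 0.000755). Of the NAD-dependent isocitrate dehydrogenase, the catalytic subunit gene Idh3a fell by 0.90 (SE 0.12, adjusted p = 0.000728) and Idh3b had a log2 change of -0.37 (SE 0.11, adjusted p = 0.0239), while Idh3g was at 0.03. The NADP-dependent isocitrate dehydrogenases of the cytosol and of the mitochondrion, from Idh1 and Idh2, were not called, at 0.27 and 0.07. Ogdh, for the first component of the 2-oxoglutarate dehydrogenase complex, and Suclg1, for the shared subunit of succinyl-CoA ligase, had log2 changes of -0.55 and -0.53 (SE 0.12 and 0.14, adjusted p = 0.00709 and 0.0138).

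Succinate dehydrogenase is at once a cycle enzyme and complex II of the respiratory chain. Its membrane anchor gene Sdhd fell by 0.64 (SE 0.12, adjusted p = 0.00372), from 113 ± 2.90 to 72.6 ± 6.41 FPKM, while Sdha (-0.39), Sdhb (-0.06) and Sdhc (-0.37) were not called. The 2 steepest falls of all 38 loci came in the last steps of the cycle. Fh1, for fumarate hydratase, was at 40.3, 54.1 and 40.4 FPKM in ASTs and at 21.9, 22.2 and 18.0 in A-iSCs. Mdh2, for the mitochondrial malate dehydrogenase, was at 111, 139 and 108 FPKM in ASTs and at 60.9, 61.0 and 43.6 in A-iSCs. Neither gene overlapped between the groups, and the log2 changes were -1.08 for Fh1 (SE 0.16, adjusted p = 0.00106) and -1.11 for Mdh2 (SE 0.18, adjusted p = 0.00175). AST replicate 2 was the highest AST and A-iSC replicate 3 the lowest A-iSC for both genes, and over the 6 fits that each left out 1 library the log2 change was -1.15 to -0.94 for Fh1 and -1.19 to -0.95 for Mdh2, called in each. Mdh1, the cytosolic enzyme of the malate-aspartate shuttle, had a log2 change of -0.59 (SE 0.14, adjusted p = 0.00933).

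Among the cycle genes, the call of Idh3b was lost without AST replicate 1 or 3 or A-iSC replicate 2 (-0.40 to -0.32). Sdha (-0.60) and Suclg2 (-0.41) were called lower where A-iSC replicate 3 was left out, against log2 changes of -0.39 and -0.32 with it, and Idh3g was called higher where both A-iSC replicate 3 and AST replicate 2 were left out (0.26, adjusted p = 0.0140).

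The starts of 4 members are shown because they are the 2 largest rises and the 2 largest falls between A-iSCs and ASTs among called members whose RefSeq start equals the end of the gene in the expression table. Each sequence is the 250 bases before the RefSeq start on GRCm38.p6, read 5′ to 3′ on the strand of the gene. Capitals mark ACGTG or GCGTG on either strand (CACGT or CACGC on the other), the core letters of the sites that hypoxia-inducible factors bind, which other factors of the same family also read.
Pdk1, chr2:71872974-71873223, plus strand: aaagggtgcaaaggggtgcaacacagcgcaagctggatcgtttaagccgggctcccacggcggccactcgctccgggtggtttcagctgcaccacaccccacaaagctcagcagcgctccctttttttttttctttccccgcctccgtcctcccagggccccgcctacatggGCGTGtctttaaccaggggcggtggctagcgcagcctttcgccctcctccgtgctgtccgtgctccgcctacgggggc
Pfkm, chr15:98092339-98092588, plus strand: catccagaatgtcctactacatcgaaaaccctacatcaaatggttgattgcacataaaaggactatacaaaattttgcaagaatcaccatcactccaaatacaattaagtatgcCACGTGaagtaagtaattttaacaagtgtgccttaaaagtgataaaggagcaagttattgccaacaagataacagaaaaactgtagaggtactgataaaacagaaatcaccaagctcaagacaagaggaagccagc
Hk2, chr6:82774455-82774704, minus strand: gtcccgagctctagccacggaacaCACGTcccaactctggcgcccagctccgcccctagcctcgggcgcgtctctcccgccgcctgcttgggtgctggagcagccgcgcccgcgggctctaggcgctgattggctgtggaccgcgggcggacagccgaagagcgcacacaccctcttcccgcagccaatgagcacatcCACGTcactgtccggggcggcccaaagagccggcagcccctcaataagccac
Fh1, chr1:175625636-175625885, minus strand: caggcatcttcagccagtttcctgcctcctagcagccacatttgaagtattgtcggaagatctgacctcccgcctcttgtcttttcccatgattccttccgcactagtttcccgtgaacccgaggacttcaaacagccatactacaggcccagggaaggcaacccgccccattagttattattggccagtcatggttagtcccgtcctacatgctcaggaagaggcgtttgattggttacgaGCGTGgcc

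Pdk1 and Fh1 each hold GCGTG once, Hk2 holds CACGT at 2 places, and in Pfkm the letters on both strands overlap in a single CACGTG. RefSeq promoter windows were matched for 35 of the 37 names. Of these, 25 (71.4%) held at least 1 such core in 250 bases, beside 42.1% of 20783 genes with 1 window each. ACGTG was in 12 of the 35 windows (34.3%, against 17.3% of all genes) and GCGTG in 18 (51.4%, against 31.8%). The core was in 6 of the 7 windows of loci that rose in A-iSCs, in 12 of 16 of those that fell and in 7 of 12 of those not called, so it was present on both sides of the comparison. AAGGTCA, a site of oestrogen-related receptors, was in 1 of the 35 windows (2.86%, against 3.71%). These matches describe letters only.

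Other genes around both pathways were read from 8 lists of 61 genes in the same fit, of which 49 passed the filter, with 7 called higher in A-iSCs (14.3%), 19 lower (38.8%) and 23 not called, beside the 25.2% and 29.6% of all tested genes. Lower calls numbered 12 to 22 over the 6 fits without 1 library, with 12 without AST replicate 3. The largest rise was that of Aldoc, the aldolase of brain astrocytes, from 12.1 to 14.2 FPKM in ASTs to 299 to 480 in A-iSCs (log2 change 4.83, SE 0.19, adjusted p = 5.07e-06), where its mean of 406 FPKM stood beside 358 for Aldoa. Hk3, a hexokinase known from blood cells, rose by 2.45 (SE 0.22, adjusted p = 9.21e-05) and Slc16a3, an exporter of lactate, by 2.36 (SE 0.13, adjusted p = 1.37e-05). Slc16a3 averaged 0.609 FPKM in ASTs and passed the filter only through A-iSCs, where it is high. Transport had 3 of 7 tested genes higher, with the glucose carrier Slc2a1 at 0.49 and the monocarboxylate carrier Slc16a1 at 1.05 besides Slc16a3. Pfkfb2 and Pfkfb4, relatives of Pfkfb3, were also higher (0.72 and 1.06).

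In the pyruvate dehydrogenase complex, 4 of 7 tested genes were lower, among them Dlat (-1.06), the core subunit, and the kinase Pdk3 given above. Among the other cycle genes, Dlst (-0.60) and Sucla2 (-0.88) were lower and Ogdhl and Pcx were not called. Of 11 tested genes for shuttles and citrate export, 7 were lower, including the transaminases Got1 (-1.02) and Got2 (-1.17). The largest falls in the lists were those of Me2, the mitochondrial malic enzyme (-1.63, SE 0.16, adjusted p = 0.000139), Slc25a13, an aspartate and glutamate carrier (-1.55, SE 0.18, adjusted p = 0.00031), and Bpgm, which makes bisphosphoglycerate (-1.53, SE 0.18, adjusted p = 0.000322). Of the pentose phosphate pathway, Rpe alone was called among 7 genes (-0.65), and it was lost without AST replicate 1, 2 or 3 or A-iSC replicate 1 or 2 (-0.90 to -0.48).

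Many steps can be run by more than 1 isozyme, and the mix differed between groups. Each share here is of the genes named with it, some of which are no members. Hk2 made up 42.3 to 45.7% of the summed FPKM of the hexokinase genes Hk1, Hk2 and Hk3 in ASTs, 24.3 to 28.5% in A-iSCs, 6.91 to 9.72% in P56-NPCs and 13.3 to 15.4% in P0-NPCs, with no overlap between groups. Hk3 held 27.1 to 46.2% in A-iSCs and at most 6.80% in any other sample. Of Hk1 and Hk2 alone, Hk2 was 44.3 to 47.2% in ASTs and 39.2 to 45.2% in A-iSCs. Aldoa held 96.0 to 96.8% of the summed Aldoa and Aldoc in ASTs, 32.7 to 58.1% in A-iSCs, 16.8 to 18.5% in P56-NPCs and 40.1 to 45.2% in P0-NPCs. The share of Pfkp in phosphofructokinase was 33.8 to 35.9% in ASTs and 16 to 22.3% in A-iSCs, and that of Pfkl was 16.4 to 17.3% and 25.9 to 30.3%. Those of Pfkm, at 47.0 to 49.8% and 51.8 to 54.8%, were closer together. In P56-NPCs Pfkm took 86.5 to 88.5% of the family.

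Ldha, whose subunit favours lactate formation, had 44.7 to 52.7% of the summed Ldha, Ldhb and Ldhc in ASTs, 40.4 to 47.9% in A-iSCs and 48.7 to 54.8% in P0-NPCs. In P56-NPCs it had only 9.06 to 9.20%. Eno2 was 17.4 to 19.7% of the enolases Eno1, Eno2 and Eno3 in P56-NPCs and 8.06 to 12.7% in P0-NPCs, and averaged 1.48% in ASTs and 2.06% in A-iSCs. Among the 4 pyruvate dehydrogenase kinases, Pdk4 was 30.9 to 37.1% in A-iSCs and at most 21.6% in every other sample. Pdk3 had the largest share in ASTs (48.0 to 56.5%) and 8.95 to 26.0% in the samples of the other groups, where Pdk2 had the largest mean share. The 4 kinases summed to 83.4 ± 2.74 FPKM in P56-NPCs and to 26.5 ± 1.82 in P0-NPCs. Shares are on the FPKM scale, and without the correction for gene length the mean share of Ldha in ASTs, for example, was 67.5% in place of 49.7%.

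**Figure D4:**
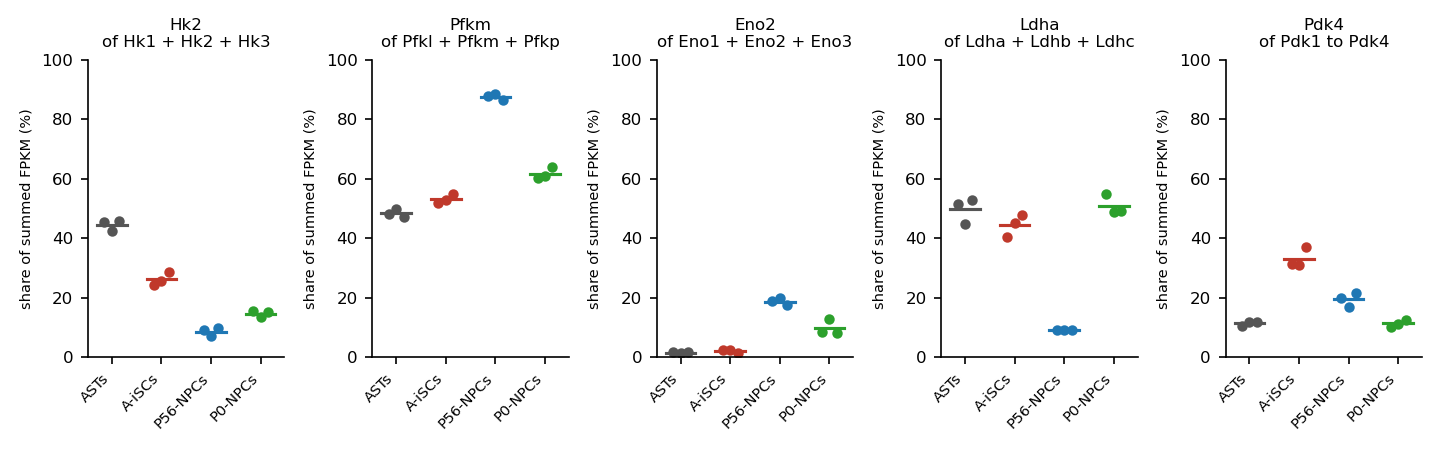
Share of 1 isozyme in the summed FPKM of the genes named above each panel, in percent, for each sample (points) with the group mean (line). Hk2 is highest in ASTs (42.3 to 45.7%), ASTs and A-iSCs lie near each other for Eno2 and Ldha, P56-NPCs stand apart for Pfkm (86.5 to 88.5%) and Ldha (9.06 to 9.20%), and A-iSCs are highest for Pdk4 (30.9 to 37.1%).

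Against ASTs, P56-NPCs had 14 loci called higher (36.8%), 16 lower (42.1%) and 8 not called, where 78.9% of all 15146 tested genes were called, 39.1% higher and 39.8% lower. The members as a whole were therefore close to the background, and their median log2 fold change of 0.04 lay beside -0.03 for all genes. The second Aldoa locus, among the 14, passed the filter only through P56-NPCs, where it is high. The AST samples are the same as in the comparison with A-iSCs. Within the families the differences were large. Hk2 was at 2.30, 2.07 and 2.38 FPKM in P56-NPCs, far under the 14.4 of the lowest AST sample, and its log2 change was -2.49 (SE 0.12, adjusted p = 1.32e-06). Ldha, at 39.2, 40.9 and 42.1 FPKM in P56-NPCs, was as far below ASTs (-2.49, SE 0.08, adjusted p = 2.03e-07), while Ldhb was higher at 393, 408 and 416 FPKM (0.78, SE 0.12, adjusted p = 0.000591). Pfkm, at 144, 166 and 134 FPKM, and Eno2, at 32.4, 37.1 and 30.2, were higher by 2.56 (SE 0.10, adjusted p = 4.23e-07) and 2.62 (SE 0.09, adjusted p = 2.69e-07).

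The kinase genes Pdk2, Pdk4 and Pdk1 were higher in P56-NPCs, by 2.52, 2.0 and 1.33 on the log2 scale, and Pdk3 was lower (-0.86, adjusted p = 0.000304). Pdk2 was at 51.5, 55.1 and 53.1 FPKM, well above every sample of the other groups. The abundant enzymes of lower glycolysis were lower, with log2 changes of -1.48 for Pgk1, -1.12 for both Pgam1 and Pkm, -1.07 for Eno1, -0.43 for Aldoa and -0.41 for Tpi1. The cycle was mixed, with 5 genes higher (Idh2 0.88, Sdha 0.60, Suclg2 0.48, Ogdh 0.29 and Idh1 0.21) and 6 lower, led by Fh1 (-1.20) and Mdh2 (-1.10). In P56-NPCs genes of the mitochondrial genome took 16.54 to 17.63% of all fragments, against 2.94 to 7.03% in the other samples, and the oligodendrocyte markers stood at the level given above, as did 5 erythroid markers at 323 to 503 FPKM, which were at most 0.5 in ASTs and A-iSCs. The sum of the neuron markers was 249 to 306 FPKM in P56-NPCs, where 9 of 9 reached 1 FPKM, against 88.9 to 125 and 3 of 9 in ASTs. Stmn2 alone went the other way (mean 18.2 against 53.8). Microglia and ependymal markers were also higher, at 436 to 459 and 267 to 368 FPKM against 97.0 to 127 and 50.4 to 63.6. Pericyte and smooth muscle markers (15.1 to 27.2 against 1702 to 2123) and fibroblast markers (24.7 to 26.5 against 145 to 196) were lower. Most of that was Acta2 and Col1a1, while Vtn and Pdgfra had higher means in P56-NPCs. The part of these in the differences was not tested.

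Calls of small size were the least secure here. Gpi1 (0.21 to 0.32), Idh1 (0.19 to 0.23) and Ogdh (0.22 to 0.34) did not pass without AST replicate 1 or P56-NPC replicate 1 or 2, nor did Gpi1 and Idh1 without AST replicate 3 or Gpi1 without P56-NPC replicate 3, and all 3 were below 0 and not called under scaling by library size, where all genes split into 4857 higher and 7578 lower, against 5924 and 6032 as reported. Aldoa (-0.54 to -0.26) and Mdh1 (-0.40 to -0.23) did not pass without any 1 of the P56-NPC samples, Sdhb (-0.57 to -0.30) without P56-NPC replicate 1 or 2 and Idh3a (-0.40 to -0.25) without P56-NPC replicate 1. Gpi1, Idh1 and Ogdh also missed the threshold under upper-quartile scaling (adjusted p = 0.326, 0.464 and 0.196), Aldoa with no filter (0.0792) and with all 4 groups in the model (0.0850), Idh1 in that model (0.216) and Suclg2 under library size scaling (0.0901). Of the other pathway genes, 17 of 50 tested were higher (34.0%) and 24 lower (48.0%), where Hkdc1 and Slc16a7, among the 17, passed the filter only through P56-NPCs, and in the pentose phosphate pathway 6 of 7 were lower, with Pgd, for phosphogluconate dehydrogenase, at -1.54 (adjusted p = 6.15e-07).

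Most loci were lower in P0-NPCs than in ASTs, with 28 lower (73.7%), 7 higher (18.4%) and 3 not called, where 79.0% of all 15010 tested genes were called, 38.1% higher and 40.9% lower. The median log2 fold change of the members was -0.92, beside -0.07 for all genes, and the AST samples are again the same. Under library size scaling 9 loci were higher and 23 lower, and all genes split into 6803 higher and 4877 lower, against 5713 and 6146 as reported. Eno1 was at 59.8, 44.5 and 61.5 FPKM in P0-NPCs against 277 to 312 in ASTs (-2.40, SE 0.15, adjusted p = 2.23e-06). Aldoa, at 70.4, 62.4 and 68.8 FPKM, and Pgk1, at 93.9, 67.4 and 86.5, were lower by similar amounts (-2.33 and -2.28, SE 0.16 for both, adjusted p = 5.03e-06 and 5.12e-06). Among the lowest were also Hk2 (-2.26), Pgam1 (-1.78), Ldhb (-1.70), Ldha (-1.63) and Fh1 (-1.59). Of the citric acid cycle, 14 of 16 genes were lower, from -0.51 for Idh3g to -1.59 for Fh1.

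The 7 loci that were higher in P0-NPCs were Pdk1, Idh1, Pfkm, Eno2, Pdk2, Pfkl and the second Aldoa locus. Pdk1 was at 5.29, 5.18 and 5.24 FPKM, close together and above every AST sample (1.19, SE 0.09, adjusted p = 6.80e-06). Idh1 was at 76.4, 83.3 and 84.4 FPKM, the highest group of the 4 (0.95, SE 0.09, adjusted p = 2.41e-05). Pdk4 was not called, at 2.69, 2.74 and 3.55 FPKM beside 3.09 to 3.50 in ASTs (-0.10, SE 0.11, adjusted p = 0.400), and Pdk3 was lower (-1.06, adjusted p = 5.58e-05). The second Aldoa locus, a protein-coding gene on the minus strand of chromosome 7 (126800790 to 126809108) just upstream of the main one (126795234 to 126800751), was at 5.46 to 6.40 FPKM in P0-NPCs and under 1 FPKM in ASTs (2.06, SE 0.13, adjusted p = 2.91e-06), so it passed the filter only through P0-NPCs, where it is high.

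The sum of 9 neuron markers was 777 to 948 FPKM in P0-NPCs, where 9 of 9 reached 1 FPKM, and 88.9 to 125 in ASTs, where 3 of 9 did and Rbfox3, Snap25 and Slc17a7 were under 0.1. Sums also differed for 5 erythroid markers (146 to 298 FPKM in P0-NPCs and at most 0.424 in ASTs), 5 endothelial markers (69.6 to 71.0 and 2.90 to 3.78) and the pericyte and smooth muscle markers (106 to 120 and 1702 to 2123). In the latter list the difference was that of Acta2, at 3.04 FPKM on average in P0-NPCs and 1848 in ASTs, while Rgs5 averaged 38.6 and 0.311, Vtn 56.7 and 0.0525, and Pdgfrb 12.2 and 11.1. In P0-NPCs 4, 5 and 4 of the 5 markers of these lists reached 1 FPKM, and in ASTs 0, 1 and 2. The part of all these in the differences was not tested. Hk1 (-0.40 to -0.26) was not called lower without AST replicate 1 or 3 or P0-NPC replicate 1, Pdhb (-0.32 to -0.23) without AST replicate 1 or 3 or P0-NPC replicate 1 or 3, and Pfkl (0.25 to 0.43) was not called higher without AST replicate 2 or 3 or P0-NPC replicate 1 or 3. Pfkl also missed the threshold with no filter, under upper-quartile scaling and with all 4 groups in the model (adjusted p = 0.0579, 0.116 and 0.0921), and Hk1, Pfkp, Pdhb, Idh3g and Sdhb under library size scaling. Of the other pathway genes, 33 of 48 tested were lower (68.8%) and 6 higher (12.5%), where Hk3 and Slc25a13, among the 33, passed the filter only through ASTs, with the malic enzyme Me1 at -2.71 (adjusted p = 3.87e-07) and Aldoc at 2.70 (adjusted p = 1.25e-07).

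A-iSCs and P56-NPCs were compared directly as well, on the same A-iSC samples, and 9 loci were higher in A-iSCs (23.7%), 15 lower (39.5%) and 14 not called, where 61.0% of all 15044 tested genes were called, 30.1% higher and 30.9% lower. Glycolysis leaned to A-iSCs, with 7 loci higher and 3 lower, and the citric acid cycle to P56-NPCs, with 9 genes lower in A-iSCs and 1 higher. Ldha was higher by 2.13 (SE 0.15, adjusted p = 1.96e-05) and Hk2 by 1.60 (SE 0.09, adjusted p = 7.89e-06), and no A-iSC sample of either overlapped with P56-NPCs. Eno2 (-2.73), Pfkm (-1.88) and Pdk2 (-1.46) were the loci furthest below P56-NPCs. Sdha (-0.99), Ogdh (-0.84), Idh2 (-0.81) and Suclg2 (-0.80) led the lower cycle genes. Pdk4 (-0.03, SE 0.17) and Pdk1 (0.18, SE 0.20) were not called.

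This comparison depends on the scaling more than any other of the 5. Under scaling by library size the median of all genes moved from 0.03 to 0.47, and 23 loci were then called higher in A-iSCs and 5 lower. All genes split into 4532 higher and 4643 lower as reported, and into 8170 and 3008 under that scaling. Sdha, called lower at -0.99, was then at -0.44 and not called (adjusted p = 0.0793), and Mdh1, called lower at -0.26, was called higher at 0.30. Hk1, Ldhb, Pdha1, Cs, Idh3a, Idh3b, Suclg1 and Suclg2 were not called under it either. Microglia markers, at 1089 to 1499 FPKM in A-iSCs and 436 to 459 in P56-NPCs, oligodendrocyte markers and neuron markers moved with the groups, and their part was not tested. Within the microglia list C1qa averaged 1029 and 213 FPKM, while P2ry12, at 7.30 and 60.2, and Tmem119, at 16.8 and 52.2, had higher means in P56-NPCs. The neuron markers summed to 48.7 to 66.0 FPKM in A-iSCs, where 4 of 9 reached 1 FPKM, and to 249 to 306 in P56-NPCs, where 9 of 9 did. Without 1 library, 6 calls could be lost. Pdha1 (-0.98 to -0.51), Sdhb (0.29 to 0.50) and Mdh1 (-0.28 to -0.23) did not pass without A-iSC replicate 1 or 2 or any P56-NPC sample, Pgk1 (0.35 to 0.79) without A-iSC replicate 2 or any P56-NPC sample, Pfkl (0.54 to 0.88) without A-iSC replicate 2 or P56-NPC replicate 1 or 3, and Eno1 (0.38 to 0.51) without P56-NPC replicate 1, where 5 loci in all were called higher. Pgk1 and Pdha1 also missed the threshold with no filter (adjusted p = 0.0971 and 0.0898), Pdha1 under upper-quartile scaling (0.0516), and Mdh1 with no filter, under that scaling and with limma-voom (0.0501, 0.0617 and 0.0566).

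Against P0-NPCs, 25 loci were higher in A-iSCs (65.8%), 3 lower (7.89%) and 10 not called, where 65.1% of all 15170 tested genes were called, 31.5% higher and 33.6% lower. The median log2 fold change of the members was 0.55, beside -0.02 for all genes, and the A-iSC samples are the same as before. Both lactate dehydrogenase genes were higher, Ldhb by 1.64 (SE 0.13, adjusted p = 2.06e-05) and Ldha by 1.28 (SE 0.18, adjusted p = 0.000442). Aldoa (2.35), Eno1 (1.80), Pgk1 (1.41), Gpi1 (1.38) and Hk2 (1.37) led glycolysis, where 10 of 15 loci were higher. Pdk4 was higher by 2.08 (SE 0.16, adjusted p = 1.92e-05), with 13.7 FPKM in the lowest A-iSC sample and 3.55 in the highest P0-NPC sample, while Pdk1 was not called (0.33, SE 0.20, adjusted p = 0.173). Of the genes counted with the cycle 11 were higher, led by the cytosolic Mdh1 (0.91) and by Suclg2 (0.81).

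The 3 lower loci were the second Aldoa locus (-1.74), Idh1 (-0.68) and Hk1 (-0.34). The call of Hk1 (-0.42 to -0.25) and that of Idh3b (0.24 to 0.31) did not pass without A-iSC replicate 1 or 2 or any P0-NPC sample, that of Sdha (0.35 to 0.73) without A-iSC replicate 2 or any P0-NPC sample, and those of Cs (0.33 to 0.38) and Sdhb (0.41 to 0.62) without P0-NPC replicate 1. Hk1 and Sdha also missed the threshold with no filter (adjusted p = 0.0666 and 0.0751), Sdha and Idh3b under library size scaling (0.0648 and 0.113), and Idh3b under upper-quartile scaling (0.0649) and with limma-voom (0.0568). Neuron markers, at 48.7 to 66.0 FPKM in A-iSCs and 777 to 948 in P0-NPCs, and microglia markers, at 63.8 to 73.7 FPKM in P0-NPCs, moved with the groups, and their part was not tested.

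Some members share sequence with other genes, and reads may have been split between them. Copies in the annotation with at least 95% identity over at least 300 bases were found for 10 members. Their summed FPKM was 25.5 to 32.4% of that of Suclg2, 15.3 to 18.8% of Eno1 and 9.16 to 12.4% of Tpi1, by group mean, and at most 7.17% of the others. Gapdh, the dehydrogenase of glycolysis, is no member and has 77 such copies. It was at 41.3, 2.73 and 54.5 FPKM in ASTs, at 53.9, 70.8 and 1.99 in A-iSCs and at most 1.77 in every NPC sample, with the low values among cultured cells again in AST replicate 2 and A-iSC replicate 3, so its level is uncertain. Pfkp shares 748 exon bases with Pitrm1 and Pdha1 shares 603 with Map3k15, both on the opposite strand. Whether the counting used strand is not given in the sources used here, so reads of such pairs cannot be told apart. Pkm shares 767 exon bases with Gm49759 and Pfkm 341 with Gm26513, both on the same strand, where strand could not separate reads. Gm49759 averaged at most 6.04 FPKM and Gm26513 at most 0.146 in any group.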

How the data were processed

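Per the study's methods, NEBNext Ultra libraries were read as paired ends on an Illumina HiSeq. The submitters' processing notes name Bowtie 0.12.2 and the build mm8, but 37 of the 38 loci and 54899 of 55154 shared identifiers had the positions of GENCODE M21 on GRCm38, so positions other than that of Mdh1 are given on GRCm38. The authors deposited 1 table of FPKM, scaled between samples before deposit. In each sample at least 99.88% of FPKM values times gene length were whole multiples of 1 step within 0.02, which gave the fragments and depth.

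Groups from the labels were compared in 5 pairs with limma 3.58.1 (R 4.3.3, lmFit, eBayes with a trend) on log2(FPKM + 1), over genes with a mean of at least 1 FPKM in either group, adjusted by Benjamini-Hochberg over all tested genes. A fold change on this scale understates changes of low genes. On simulated data for A-iSCs against ASTs, 189 of 200 changed genes among 14087 were called, all in the right direction, beside 23 unchanged genes. False calls were thus 10.8% of all calls, more than an adjusted p under 0.05 is meant to allow. The simulation changed few genes, used the same relative spread for all and held no outlying library. Its counts therefore do not carry over to the calls made here. The authors used DESeq2. It was left out because the table holds FPKM, and limma-voom on the recovered fragments was an alternative. Others were a pseudocount of 0.1, no filter, library size and upper-quartile scaling, all 4 groups in 1 model, the replicate number as a block, each library left out, and, added after the data were seen, AST replicate 2 and A-iSC replicate 3 left out together. Copies were searched with blastn 2.17.0, and Python 3.11.15 did the rest.

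Members, gene lists and tests were chosen with earlier results of these data known. All members are named, other pathway genes by count with the 3 largest and 3 smallest called changes without overlap in A-iSCs over ASTs and those a sentence on a list names. Some genes of the surrounding pathway lists are counted in them but not reported here by name.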

Additional observations from a re-analysis of the deposited data

How the results depend on the processing

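Depth limits little for the members, which were far above the floor of 3 fragments apart from the second Aldoa locus. With 3 samples a group, calls of small size depend on single libraries, and levels depend on the scaling. Under scaling by library size, 9 loci were lower in A-iSCs than in ASTs (17 as reported), and 23 were higher and 5 lower in A-iSCs than in P56-NPCs (9 and 15). The pseudocount, the filter, limma-voom, upper-quartile scaling and the model with all 4 groups left each count of called members within 1.5 times its value.

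Over the fits that left out 1 library, loci called higher and lower numbered 6 to 7 and 12 to 20 for A-iSCs against ASTs, 11 to 16 and 12 to 16 for P56-NPCs against ASTs, 6 to 7 and 26 to 28 for P0-NPCs against ASTs, 5 to 12 and 13 to 15 for A-iSCs against P56-NPCs, and 21 to 26 and 2 to 4 for A-iSCs against P0-NPCs.

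The replicate numbers did not pair the samples, since correlations of same-numbered deviations were -0.41, 0.35 and 0.45 between ASTs and A-iSCs and -0.14 to 0.07 elsewhere. With the replicate block, 7 loci were higher and 15 lower in A-iSCs against ASTs, 12 and 15 in P56-NPCs against ASTs, 7 and 27 in P0-NPCs against ASTs, 7 and 14 in A-iSCs against P56-NPCs, and 22 and 3 in A-iSCs against P0-NPCs.

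Changes of sign were as follows, and where no other cause is plain the cause was not tested. For A-iSCs against ASTs, library size scaling gave Tpi1 0.16, Eno2 0.07, Ldhb 0.16 and Sdhb 0.15, upper-quartile scaling gave Aldoa -0.11, Idh2 -0.06 and Idh3g -0.10, and leaving out both AST replicate 2 and A-iSC replicate 3 gave Eno2 0.11, Ldhb 0.06 and Sdhb 0.20, all uncalled in that setting. For P56-NPCs against ASTs, library size scaling gave Hk1 -0.16, Gpi1 -0.08, Pfkfb3 -0.19, Pdha1 -0.15, Idh1 -0.13, Idh3b -0.15, Ogdh -0.04 and Suclg1 -0.18, and upper-quartile scaling gave Pfkfb3 -0.03 and Suclg1 -0.00, again uncalled. For P0-NPCs against ASTs, library size scaling gave Pdhb 0.02, Pdk4 0.12 and Idh2 0.27, of which Idh2 was called. For A-iSCs against P56-NPCs, it gave Pdhb 0.43, Pdk4 0.49, Sdhc 0.39, Sdhd 0.47, Mdh1 0.30 and Mdh2 0.54, all called, and upper-quartile scaling gave Mdh2 0.02. These shifts follow the median of all genes, which library size scaling moved to 0.12, -0.29, 0.17, 0.47 and -0.08 in the 5 comparisons in the order above.

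With 1 library left out, values on both sides of 0 were seen for A-iSCs against ASTs in Aldoa (-0.13 to 0.30), Tpi1 (-0.21 to 0.12), Eno2 (-0.23 to 0.12), Ldhb (-0.12 to 0.04), Idh2 (-0.01 to 0.15), Idh3g (-0.04 to 0.15), Sdhb (-0.18 to 0.11) and Gapdh (-1.09 to 1.61), for P56-NPCs against ASTs in Pfkfb3 (-0.00 to 0.16) and Idh3g (-0.08 to 0.09), for P0-NPCs against ASTs in Idh2 (-0.09 to 0.07), for A-iSCs against P56-NPCs in Pdk1 (-0.04 to 0.36), Pdk4 (-0.18 to 0.07), Idh1 (-0.13 to 0.24), Idh3g (-0.02 to 0.17) and Mdh2 (-0.09 to 0.15), and for A-iSCs against P0-NPCs in Ogdh (-0.05 to 0.07) and Mdh2 (-0.12 to 0.12).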

Other observations

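Genes around both pathways were also compared between A-iSCs and the brain cell suspensions. Against P56-NPCs, A-iSCs had 15 of 51 tested genes of the 8 lists higher (29.4%) and 18 lower (35.3%), near the 30.1% and 30.9% of all tested genes. Slc16a3 among the higher genes, and Hkdc1 and Slc16a7 among the lower, passed the filter only through the group where each is high. Under library size scaling all genes split into 8170 higher and 3008 lower. In the pentose phosphate pathway 4 of 7 were higher (G6pdx, Pgls, Pgd and Rpia), and of the other cycle and anaplerotic genes 4 of 5 were lower. Ogdhl, a form of 2-oxoglutarate dehydrogenase typical of brain, averaged 7.07 FPKM in A-iSCs and 38.9 in P56-NPCs (log2 change -2.31, adjusted p = 2.04e-05 with limma). Bpgm averaged 8.29 and 52.2 (-2.54, adjusted p = 1.70e-05), and erythroid markers, which summed to 323 to 503 FPKM in P56-NPCs and at most 0.5 in A-iSCs, moved with it, a part that was not tested. Against P0-NPCs, A-iSCs had 20 of 49 tested genes higher (40.8%) and 4 lower (8.16%, and 12 genes without A-iSC replicate 3), beside 31.5% and 33.6% of all 15170 tested genes, and the transport list had 5 of 7 higher. Hk3, Slc16a3 and Slc25a13, among the 20, passed the filter only through A-iSCs, where they are high. The 4 lower genes were Bpgm (-1.04), Pfkfb2 (-0.70), Rpia (-0.48) and Slc25a12 (-0.40). Erythroid markers summed to 146 to 298 FPKM in P0-NPCs and moved with Bpgm between these 2 groups too, a part that was not tested. In ASTs, however, Bpgm averaged 25.4 FPKM, above its 17.8 in P0-NPCs, while erythroid markers summed to at most 0.424. These comparisons share the A-iSC samples.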
